A study of Mus musculus with 4 samples.

Results

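A set of 8 genes that are widely read as signs of how a macrophage has been activated was followed through the immune cells of healing mouse skin. They were taken by symbol, with earlier results of these data known: Arg1, Nos2, Acod1, Retnla, Chil3, Mrc1, Mgl2 and Clec10a. These make up 8 of the 31053 genes in the deposited matrices. The cells were live CD45+ leukocytes, negative for propidium iodide, sorted from 3 mm punch wounds of C57BL6/J mice that carried Angptl4 (Angptl4+/+) or lacked it (Angptl4-/-). Angptl4 encodes a secreted inhibitor of lipoprotein lipase. The study's methods list Invivos as the source of the wild-type mice and the Mutant Mouse Regional Resource Center for the Angptl4-/- mice. Differences by genotype and by mouse source therefore cannot be told apart. Wounds were taken 1 and 5 days post wounding (dpw), per the study's methods from 8-week-old males, and each genotype and day gave 1 single-cell library with the number of mice behind it not given in the sources used here. With 1 library a group there was no replicate, so no difference below has a test or a replicate check, and the 95% intervals cover counting error only.

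Macrophages can be pushed in different directions by the signals they meet. Bacterial products and interferon-gamma induce Nos2, which turns arginine into nitric oxide and citrulline, and Acod1, which makes itaconate from a citric acid cycle intermediate. Interleukin-4 and interleukin-13, acting through STAT6, induce Arg1, which splits the same arginine into ornithine and urea, together with the secreted proteins Retnla (resistin-like alpha, also called Fizz1) and Chil3 (the chitinase-like Ym1) and the surface lectins Mrc1 (the mannose receptor CD206), Mgl2 and Clec10a, which bind galactose-type sugars. Arg1 can also be induced without those cytokines, by hypoxia, lactate or bacterial signals. In skin wounds, arriving monocytes turn into macrophages over the first days, and the genes of both programmes are used to follow that change.

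The libraries held 4738 to 5346 cells that passed the filters, 19827 in all, with a median of 3735.5 to 4975.5 UMIs (distinct captured transcripts) per cell. Angptl4 itself had 47 and 78 UMIs in the Angptl4+/+ libraries at 1 and 5 dpw and 0 UMIs in both Angptl4-/- libraries, as their labels say. Clustering without the 8 genes gave 6 classes, named from marker lists, among them 4201 macrophage-like, 549 monocyte-like, 724 dendritic cell-like and 13781 neutrophil-like cells. Macrophage-like cells came from 3 clusters: a cluster with Mmp12 and Cav1 among its leading genes held 755 and 510 of the cells at 1 dpw and 663 and 240 at 5 dpw (Angptl4+/+ and Angptl4-/-), one led by complement C1q genes 330 and 266 at 1 dpw and 789 and 357 at 5 dpw, and a Vcan-led one the rest. Their make-up thus differed between days, and each class value below mixes them. Every pair of libraries shared 5 to 15 cell barcodes. Levels are given as CPM, the UMIs of a gene as a share of all UMIs of the cells of a class in a library, in parts per 1e6. Summed markers of keratinocytes, fibroblasts and endothelial cells stayed under 36.2 CPM in every library, while red blood cell markers stood at 602 CPM in the Angptl4-/- library at 5 dpw and at 0.729 to 3.86 in the others. Within macrophage-like cells, mast cell or basophil markers summed to 0 CPM at 1 dpw in both genotypes. At 5 dpw they summed to 58.9 (Angptl4+/+) and 139 CPM (Angptl4-/-), and their part in the values below was not tested. Since the 3' assay counts transcript ends, levels are compared within a gene and not between genes.

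In which cells was each gene found? Arg1 and Mrc1 sat almost wholly in macrophage-like cells, which held 98.6 to 99.3% of the Arg1 UMIs and 88.4 to 93.6% of the Mrc1 UMIs of a library. Acod1 was a neutrophil transcript by amount: 93.0 to 96.6% of its UMIs came from neutrophil-like cells. Nos2 was split, with 47.7 to 79.4% in neutrophil-like and 20.3 to 51.4% in macrophage-like cells. Chil3 was divided between macrophage-like cells, with 48.9 to 66.8%, and the much fewer monocyte-like cells, with 31.9 to 50.0%. Dendritic cell-like cells held 48.8 to 87.4% of the Mgl2 UMIs. They held 58.8 and 65.3% of the Clec10a UMIs at 5 dpw but 40.3 and 37.7% at 1 dpw, where macrophage-like cells held 43.5 and 37.5% (Angptl4+/+ and Angptl4-/-). Retnla lay in macrophage-like cells for 63.0 to 97.0% of its UMIs, most of the remainder being in a few cells of the NK cell or T cell-like class.

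RNA released from broken cells reaches every droplet, so a low level in the wrong class need not be expression. For 7 reference macrophage genes, the level in neutrophil-like cells was a median of 0.142 to 0.512% of that in macrophage-like cells across the libraries. Arg1, at 0.11 to 0.39%, and Mrc1, at 0.13 to 0.37%, were of like size, and their counts in neutrophil-like cells are read as background. Nos2 in neutrophil-like cells, in contrast, stood at 53.3 to 246.6% of its macrophage level and Acod1 at 925 to 3143%.

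**Figure D1:**
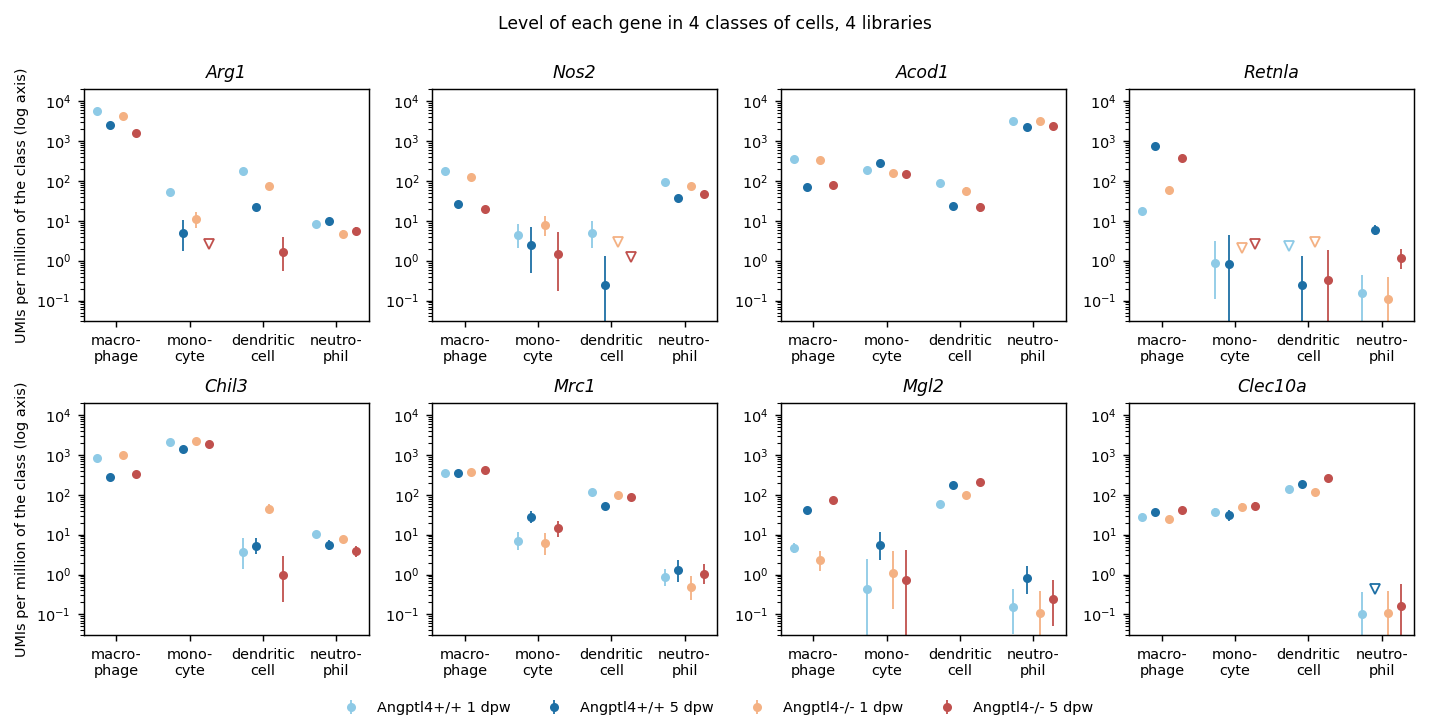
Level of each of the 8 genes in CPM (log axis) in macrophage-like, monocyte-like, dendritic cell-like and neutrophil-like cells of the 4 libraries, with exact Poisson 95% intervals of the counts as bars and open triangles for the upper limit where no UMI was seen. Arg1 is highest in macrophage-like cells (1608 to 5691 CPM), Acod1 in neutrophil-like cells (2248 to 3221), Chil3 in monocyte-like cells (1367 to 2191), and Mgl2 and Clec10a in dendritic cell-like cells.

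Arg1 (ENSMUSG00000019987, chr10:24915221-24927484 on the minus strand of GRCm38, up to 8 exons) was found in most macrophage-like cells. At 1 dpw its level was 5691 CPM (5642 to 5741) and at 5 dpw 2474 (2447 to 2501) in Angptl4+/+ wounds, compared with 4304 (4250.5 to 4358) and 1608 (1579.9 to 1637) in Angptl4-/- wounds. At least 1 Arg1 UMI was seen in 89.1 and 65.9% of the Angptl4+/+ cells and in 84.4 and 50.8% of the Angptl4-/- cells, against 1.57 to 4.14% of neutrophil-like cells. After each cell was thinned to 1000 UMIs, to set deep and shallow cells on the same footing, the macrophage shares were 80.0, 50.8, 72.0 and 35.4% in the same order. Both days and both genotypes thus ranked in one order by level and by share, with no overlap of the counting intervals: Angptl4+/+ at 1 dpw, Angptl4-/- at 1 dpw, Angptl4+/+ at 5 dpw and Angptl4-/- at 5 dpw. On the log2 scale the level was lower at 5 than at 1 dpw by a ratio of -1.20 (-1.22 to -1.18) when Angptl4 was present and -1.42 (-1.45 to -1.39) when it was absent. The ratio of Angptl4-/- to Angptl4+/+ was -0.40 (-0.42 to -0.38) at 1 dpw and -0.62 (-0.65 to -0.59) at 5 dpw, both short of 2-fold. Dendritic cell-like cells had 176, 22.0, 73.7 and 1.66 CPM in the order Angptl4+/+ 1 and 5 dpw, Angptl4-/- 1 and 5 dpw. These were 3.09, 0.89, 1.71 and 0.10% of the macrophage level. The reference macrophage genes had medians of 3.09, 4.47, 2.77 and 2.78% in the same cells. In Angptl4+/+ wounds at 1 dpw the 176 CPM stood beside 8.39 in neutrophil-like cells. Whether the Arg1 counts of dendritic cell-like cells are background was not tested.

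Nos2 (ENSMUSG00000020826, chr11:78920787-78960254, plus strand, 27 exons) was lower at 5 dpw in both of its main cell classes. In macrophage-like cells of Angptl4+/+ wounds it stood at 178 CPM (169.5 to 187) on the earlier day and at 26.6 (23.9 to 29.6) on the later one, against 128 (119 to 138) and 19.4 (16.4 to 22.8) in Angptl4-/- wounds. The log2 ratio of 5 to 1 dpw was nearly alike in the genotypes, -2.74 (-2.91 to -2.57) and -2.72 (-2.99 to -2.47), and the difference between these ratios was 0.02. Thinned to 1000 UMIs, 11.9 and 2.26% of Angptl4+/+ and 8.32 and 2.03% of Angptl4-/- macrophage-like cells had a Nos2 UMI, so the gene was detected in a minority of the cells even at 1 dpw. In neutrophil-like cells the levels were 94.9 (90.6 to 99.3) and 37.4 (33.5 to 41.7) CPM in Angptl4+/+ and 75.4 (71.5 to 79.5) and 47.9 (44.1 to 51.9) in Angptl4-/- wounds. Macrophage-like cells therefore had the higher level at 1 dpw and neutrophil-like cells the higher level at 5 dpw, in each genotype. By the mean of each cell's own CPM the order at 5 dpw in Angptl4+/+ wounds turned, with macrophage-like cells higher. The neutrophil genotype ratio was -0.33 (-0.43 to -0.23) at 1 dpw and 0.35 (0.16 to 0.55) at 5 dpw, opposite in sign and short of 2-fold on each day. With the class taken from each cell's own markers the 5 dpw ratio was -0.19, and the macrophage ratio at 5 dpw, -0.46 (-0.74 to -0.18) by cluster, was 0.40.

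Acod1 (ENSMUSG00000022126, chr14:103046977-103056573, plus strand, 5 exons) was detected in nearly every neutrophil-like cell at 1 dpw and in most at 5 dpw. The share with a UMI was 96.6% at 1 dpw in both genotypes and 79.2 and 82.4% at 5 dpw in Angptl4+/+ and Angptl4-/- wounds, and 84.6, 83.2, 64.8 and 66.1% after thinning to 1000 UMIs. The level was 3221 (3196 to 3246) and 2248 (2217 to 2280.1) CPM in Angptl4+/+ and 3130.3 (3105 to 3156) and 2323 (2296 to 2350.5) in Angptl4-/- wounds, a log2 ratio of 5 to 1 dpw of -0.52 and -0.43. Genotype ratios were -0.04 (-0.06 to -0.02) at 1 dpw, a sign that turned under other scalings, and 0.05 (0.02 to 0.07) at 5 dpw, so neutrophil-like Acod1 differed between genotypes by a few percent. Among the neutrophil-like clusters, one had the highest level in all 4 libraries (4410.2 to 5303 CPM) and another the lowest (1152 to 2005), a spread wider than that between days. Macrophage-like cells had 347 (335 to 359) and 71.5 (67.0 to 76.3) CPM in Angptl4+/+ and 338 (324 to 354) and 80.6 (74.4 to 87.2) in Angptl4-/- wounds, with log2 day ratios of -2.28 (-2.38 to -2.17) and -2.07 (-2.20 to -1.94). All 10 neutrophil markers were also detected in the macrophage-like class. Their sum there fell with Acod1, from 21360.5 to 3756 CPM with Angptl4 and from 18034 to 5013 without it. In neutrophil-like cells the same sum was 218094 and 133516 CPM with Angptl4 and 233817 and 136939 without it. The part of neutrophil transcripts in the macrophage value of Acod1 was not tested. Without the 2 macrophage sub-clusters richest in such transcripts or lowest in UMIs, the day ratios were -2.01 and -1.88. The neutrophil markers also fell in the macrophage sub-clusters that were kept, so this removal does not separate their part. In sub-cluster 0, for example, their sum went from 16866 to 4598 CPM with Angptl4 and from 14373 to 8270 without it.

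The letters just before the Acod1 start are shown because it is the only member highest in neutrophil-like cells in every library. They hold 1 match to the hypoxia-response core ACGTG, on the minus strand from 18 to 14 bases before the start. Capitals mark motif matches in all sequences given here, which are the 250 bases before the RefSeq start on build GRCm38.p6, 5′ to 3′ on the gene's strand. Acod1 is at chr14:103046762-103047011, plus strand.
Acod1: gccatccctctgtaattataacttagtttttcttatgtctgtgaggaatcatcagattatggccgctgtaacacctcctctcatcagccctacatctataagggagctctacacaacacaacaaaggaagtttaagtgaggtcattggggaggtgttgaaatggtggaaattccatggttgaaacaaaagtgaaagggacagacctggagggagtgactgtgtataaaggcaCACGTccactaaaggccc

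Chil3 (ENSMUSG00000040809, chr3:106147554-106167564, minus strand, 11 exons) was highest in monocyte-like cells. Monocyte-like cells had 2060.1 (2001 to 2120.1) and 1367 (1303 to 1434) CPM at 1 and 5 dpw in Angptl4+/+ wounds and 2191 (2123 to 2259.9) and 1919 (1847 to 1994) in Angptl4-/- wounds. Macrophage-like cells had 817 (799 to 836), 272 (263 to 281), 991 (965 to 1017) and 337 (324 to 350.2) in the same order, below the monocyte-like cells of the same library each time. The gene was lower at 5 dpw in both classes, by a log2 ratio of -1.59 (-1.65 to -1.53) and -1.56 (-1.62 to -1.49) in macrophage-like cells of Angptl4+/+ and Angptl4-/- wounds, and by -0.59 and -0.19 in monocyte-like cells. Angptl4-/- cells were on the higher side in every one of these pairs, with macrophage genotype ratios of 0.28 (0.23 to 0.33) and 0.31 (0.24 to 0.38) and a monocyte ratio of 0.49 at 5 dpw, none past 2-fold. With the class taken from each cell's own markers the macrophage genotype ratio was -0.46 at 1 dpw and 0.0587 at 5 dpw. Some of the Chil3 reading is uncertain, because 20.3% of the 31-base words in the last 500 bases of its transcripts also occur in another gene, mainly Chil4 and a pseudogene.

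Retnla (ENSMUSG00000061100, chr16:48842551-48844461, plus strand, 4 exons) had the widest day difference of the 8 genes in macrophage-like cells of Angptl4+/+ wounds, though not of Angptl4-/- wounds, and few cells behind it. In macrophage-like cells its level went from 17.9 CPM (15.3 to 20.9) at 1 dpw to 771 (756 to 786) at 5 dpw in Angptl4+/+ wounds, and from 57.8 (51.7 to 64.3) to 371 (358 to 385) in Angptl4-/- wounds. These sums came from 10 and 113 cells with a UMI in Angptl4+/+ wounds and from 18 and 38 in Angptl4-/- wounds, or 0.867, 7.29, 2.13 and 5.82% of the class. The log2 day ratio, 5.42 (5.20 to 5.66) with Angptl4, was 2.68 (2.52 to 2.85) without it, and these ratios differed by -2.74 (-3.02 to -2.46). Angptl4-/- cells were thus higher than Angptl4+/+ cells at 1 dpw, with a log2 ratio of 1.69 (1.41 to 1.97), and lower at 5 dpw, with -1.05 (-1.12 to -0.99). Single cells weigh heavily here: 1 cell held 81 of the 161 UMIs at 1 dpw in Angptl4+/+ wounds and 131 of the 334 in Angptl4-/- wounds, and 1 cell held 1177 of 10076 and 482 of 2867 at 5 dpw. The top 5% of macrophage-like cells held 99.6 to 100% of the Retnla UMIs in a library, against 89.9 to 100% for Mgl2, 51.1 to 99.3% for Nos2, 22.4 to 42.9% for Arg1 and 29.4 to 61.0% for Mrc1. A counting interval that treats UMIs as independent does not cover that spread between cells. Without the cell with the most Retnla UMIs in each library the genotype ratios were 1.98 at 1 dpw and -1.14 at 5 dpw. The 5 dpw ratio was short of 2-fold, at -0.88, when the libraries were clustered without integration.

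Mrc1 (ENSMUSG00000026712, chr2:14229392-14332057, plus strand, 30 exons) stayed nearly level in macrophage-like cells. It had 351 (339 to 363) and 345 (335 to 355) CPM at 1 and 5 dpw in Angptl4+/+ wounds and 365 (349.6 to 381) and 408 (394 to 422) in Angptl4-/- wounds. The log2 day ratio was -0.02 (-0.09 to 0.04) in Angptl4+/+, with an interval that spans no change, and 0.16 (0.08 to 0.24) in Angptl4-/- wounds. The share of thinned cells with a UMI was 16.97 and 21.2% with Angptl4 and 17.4 and 25.4% without it. Dendritic cell-like cells had less, 51.3 to 115 CPM, and monocyte-like cells 6.08 to 28.2 CPM.

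Mgl2 (ENSMUSG00000040950, chr11:70130329-70137550, plus strand, 10 exons) and its neighbour Clec10a (ENSMUSG00000000318, chr11:70156197-70170834, plus strand, 10 exons) lie side by side on chromosome 11. Mgl2 in dendritic cell-like cells was 58.0 (46.9 to 71.0) and 178 (165 to 191) CPM in Angptl4+/+ wounds and 96.6 (80.0 to 116) and 206 (189.7 to 222) in Angptl4-/- wounds. In macrophage-like cells it went from 4.68 (3.37 to 6.33) to 42.4 (38.9 to 46.1) CPM and from 2.25 (1.20 to 3.84) to 73.0 (67.1 to 79.3). Mgl2 was thus higher at 5 dpw in both classes, with macrophage log2 day ratios of 3.18 (2.72 to 3.67) with Angptl4 and 5.02 (4.24 to 5.94) without it, and dendritic cell ratios of 1.62 (1.31 to 1.94) and 1.09 (0.80 to 1.39). At 1 dpw the macrophage sums were only 42 UMIs in 11 cells, 29 of them in 1 cell, and 13 UMIs in 6 cells, so the genotypes were not compared there. At 5 dpw, with 87 and 74 cells, the genotype ratio was 0.78 (0.61 to 0.96), and -0.27 without the small Lyz1-led sub-cluster in which Retnla was concentrated.

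Clec10a differed less between days than Mgl2 in macrophage-like cells, and in dendritic cell-like cells of Angptl4+/+ wounds. Dendritic cell-like cells had 138 and 186 CPM in Angptl4+/+ and 119.6 and 256 in Angptl4-/- wounds, log2 day ratios of 0.43 (0.21 to 0.65) and 1.10 (0.84 to 1.37), the latter past 2-fold and close to that of Mgl2. Macrophage-like cells had 27.0 (23.7 to 30.6), 37.5 (34.2 to 41.0), 25.1 (21.2 to 29.5) and 41.3 (36.9 to 46.1). Monocyte-like cells had 37.5, 30.6, 50.3 and 53.4 CPM, with intervals that overlapped those of macrophage-like cells in 3 libraries and stood above them in Angptl4-/- wounds at 1 dpw. The macrophage day ratios were 0.47 (0.25 to 0.70) and 0.72 (0.43 to 1.01) on the log2 scale, and both genotype ratios had intervals that span no change. The neighbours share sequence: 21.3% of the 31-base words at the end of Clec10a transcripts occur in another gene, mainly Mgl2. At the end of Mgl2 transcripts the share is 9.79%, most of it with the gene H2-Q6. The counts of both genes are thus in part uncertain.

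Retnla and Mgl2 rose at 5 dpw in the same class, while Chil3 fell, and their promoters are given here for that reason. Retnla is at chr16:48842359-48842608 and Mgl2 at chr11:70130107-70130356, both on the plus strand, and Chil3 is at chr3:106167565-106167814 on the minus strand. The capitals in Retnla are a STAT6-type pair, TTC and GAA 4 bases apart, from 145 to 136 bases before the start, and a C/EBP-type match, TTGC and AA with 2 bases between, from 134 to 127 bases before it. The capitals in Chil3 are a STAT-type pair of TTC and GAA 3 bases apart, from 172 to 164 bases before the start. Mgl2 has no match to any of the 6 motifs searched on both strands.
Retnla: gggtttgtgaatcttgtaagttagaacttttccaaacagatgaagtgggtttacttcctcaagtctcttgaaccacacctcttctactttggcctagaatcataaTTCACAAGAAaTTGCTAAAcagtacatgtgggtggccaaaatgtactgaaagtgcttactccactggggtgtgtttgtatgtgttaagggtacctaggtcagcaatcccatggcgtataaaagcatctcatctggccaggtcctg
Mgl2: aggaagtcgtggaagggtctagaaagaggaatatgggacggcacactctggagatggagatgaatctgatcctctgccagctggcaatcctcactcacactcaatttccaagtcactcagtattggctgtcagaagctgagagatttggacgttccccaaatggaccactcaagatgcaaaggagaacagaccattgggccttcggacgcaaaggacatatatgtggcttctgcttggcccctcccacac
Chil3: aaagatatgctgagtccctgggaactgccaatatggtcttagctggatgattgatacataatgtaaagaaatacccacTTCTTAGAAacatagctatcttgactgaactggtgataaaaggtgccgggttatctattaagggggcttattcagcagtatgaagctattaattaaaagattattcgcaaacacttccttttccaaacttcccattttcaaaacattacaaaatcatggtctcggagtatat
Across 32851 RefSeq promoters of the same length, 5.85% held the 4-base-spaced pair, 7.02% the 3-base-spaced pair, 9.56% the C/EBP-type word and 16.6% the hypoxia core, so each is a common string. Matches to the AP-1-type motif (TGANTCA) were found in 6.75% and to an NF-kB motif in 3.9%, but in none of the 5 members in the promoter table, which were the 4 printed here and Mrc1. Arg1, Nos2 and Clec10a had no entry. A match is a string of letters and not evidence of binding.

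How did these shifts compare with those of other genes? A gene was called when its ratio passed 2-fold, among genes with at least 100 UMIs over both libraries. The members were chosen with earlier results of these data known, so their counts beside the shares of all genes are not a test. In macrophage-like cells of Angptl4+/+ wounds, 2 of the 8 members were called higher at 5 dpw (Retnla and Mgl2), where 6.6% of all 8851 measured genes were, and 4 of 8 were called lower (Arg1, Nos2, Acod1 and Chil3), where 4.28% of all genes were. In Angptl4-/- wounds the same genes were called in the same directions, 2 of 8 higher against 4.53% of genes and 4 of 8 lower against 3.58%. Acod1 is counted here although neutrophil markers fell in the same cells, and their part in its value was not tested. With the class taken from each cell's own markers, Arg1 was short of 2-fold in both genotypes (-0.60 and -0.80) and Chil3 in Angptl4-/- wounds (-0.84). The median log2 ratio of all genes was 0.15 in Angptl4+/+ and 0.07 in Angptl4-/- wounds. Genotype calls were scarce: at 1 dpw 1 of 7 measured members was higher in Angptl4-/- cells (Retnla), against 0.307% of genes, and 0 of 7 were lower, against 0.422%. At 5 dpw 0 of 8 were higher, against 0.497%, and 1 of 8 was lower (Retnla), against 0.678%.

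**Figure D2:**
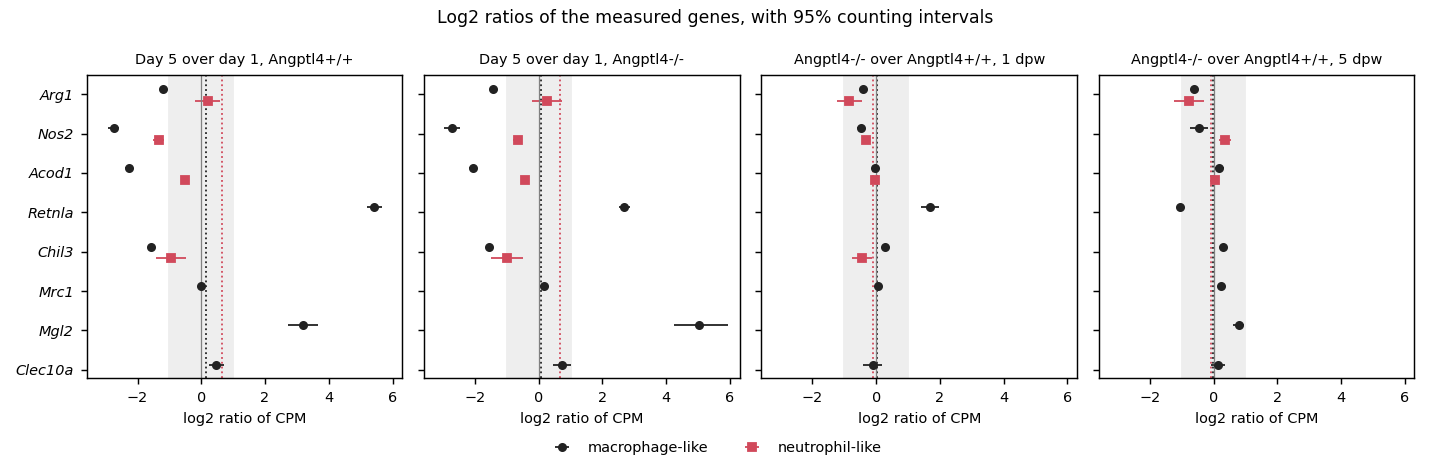
Log2 ratios of the 8 genes in macrophage-like and neutrophil-like cells for 5 against 1 dpw in each genotype and for Angptl4-/- against Angptl4+/+ on each day, with exact 95% counting intervals as bars. In macrophage-like cells Nos2, Acod1, Chil3 and Arg1 lie below 0 and Retnla and Mgl2 above it for both day ratios, and Retnla lies above 0 at 1 dpw (1.69) and below 0 at 5 dpw (-1.05) for the genotype ratio.

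In neutrophil-like cells 4 members had enough UMIs for the day comparison. Of these, Arg1 is read as background above, and Chil3 stood at only 3.83 to 10.4 CPM, beside 1367 to 2191 in monocyte-like cells. Whether those Chil3 counts are background was not tested. Only Nos2 in Angptl4+/+ wounds passed 2-fold, with a log2 ratio of -1.34 (-1.52 to -1.17), which was -0.83 with the class taken from each cell's own markers, so 1 of 4 was called lower against 1.86% of all genes, and 0 of 4 were called higher against 30.4%. In Angptl4-/- wounds 0 of 4 were called in either direction, against 32.8% of genes higher and 1.81% lower, with Nos2 at -0.66 (-0.80 to -0.52) and Chil3 at -0.995 (-1.504 to -0.51), just inside the limit. The median of all genes in this comparison was 0.65 in Angptl4+/+ and 0.68 in Angptl4-/- wounds, so the CPM of most genes was higher at 5 dpw, and relative to that shift the members stand lower than their ratios say. When the libraries were scaled by edgeR's trimmed mean of M-values (TMM), Acod1 was at -1.18 and -1.13 and Chil3 at -1.60 and -1.69 in Angptl4+/+ and Angptl4-/- wounds, Nos2 was at -2.01 and -1.35, and the background counts of Arg1 changed sign, from 0.20 and 0.26 to -0.47 and -0.44. No member was called between genotypes in neutrophil-like cells, 0 of 4 at 1 dpw against 0.309% of genes higher and 0.649% lower, and 0 of 3 at 5 dpw against 0.522% higher and 0.507% lower.

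Within the phagocytes the members did not share a single cell population. The 5474 macrophage-like, monocyte-like and dendritic cell-like cells were divided into 14 sub-clusters, again without the 8 genes, and described by their leading genes. Arg1 was highest, at 7671 CPM over all libraries, in sub-cluster 0, led by Sema3c, Mt2, Ptges and Mmp12, which held 46.2% of the Arg1 UMIs of these cells, and in 3 of the 4 libraries. In Angptl4+/+ wounds at 1 dpw sub-cluster 3 stood higher, at 9929 against 9438 CPM. Nos2 was highest in sub-cluster 0 in each of the 4 libraries, at 194 CPM over all with 49.2% of its UMIs. Chil3 peaked in the monocyte-like sub-cluster 2 (Ace, Prtn3) at 1953 CPM, also in each library, and Mrc1 in sub-cluster 6 (Ccl8, Gas6 and complement C1q genes) at 779 CPM, in 3 of the 4 libraries. Retnla was concentrated in sub-cluster 10, led by the lysozyme gene Lyz1 with Plxdc2 and Ear2: its 234 cells held 84.6% of the Retnla UMIs, at 3768 CPM. Sub-clusters 5 and 3 came next, at 231 and 225 CPM. Mgl2 had a peak in that sub-cluster, 335 CPM, and another in the dendritic cell-like sub-cluster 9 (Ffar2, Cd209a), 299.6 CPM, where Clec10a stood at 348 CPM. Clec10a was higher still, at 438 CPM, in 33 Siglech-led cells. Acod1 among the phagocytes was highest in sub-cluster 11, at 1358 CPM, whose leading genes Retnlg and S100a8 are neutrophil transcripts. At 5 dpw in Angptl4+/+ wounds that sub-cluster also had 3050 CPM of summed mast cell or basophil markers. In the other sub-clusters with at least 20 cells in a library these markers reached at most 1.60 CPM. In Angptl4-/- wounds at 5 dpw sub-cluster 11 had only 10 cells, and its markers were not summed.

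**Figure D3:**
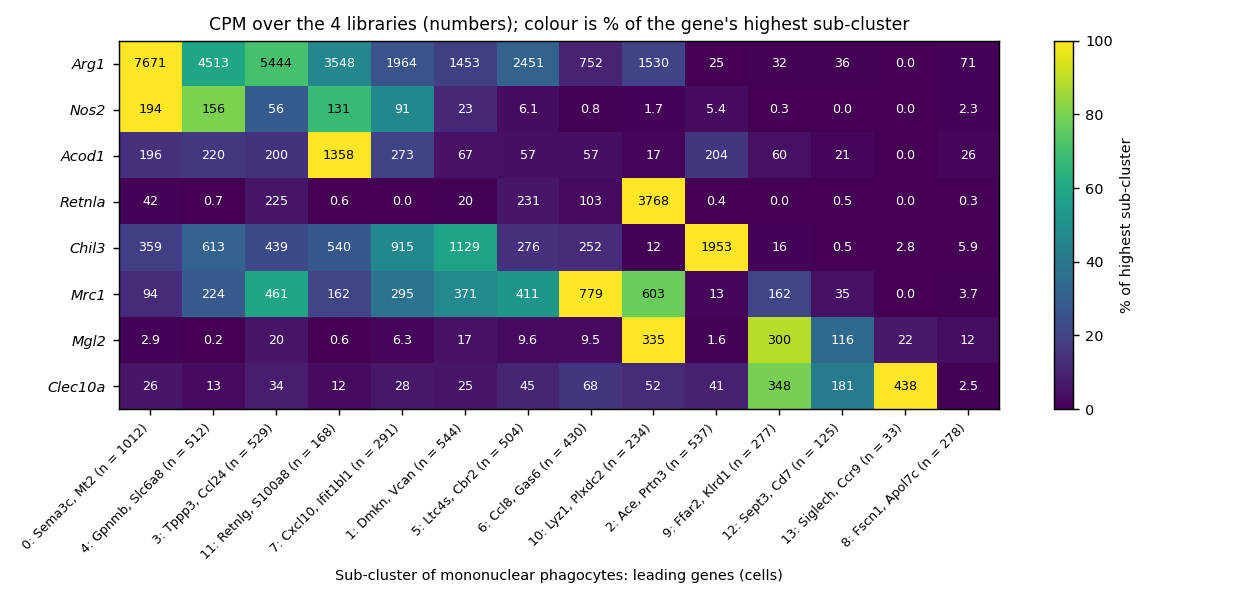
Level of each gene (rows) in each of the 14 phagocyte sub-clusters (columns, named by leading genes, with their number of cells), all libraries together, printed in CPM and coloured by the percentage of that gene's highest sub-cluster. Arg1 and Nos2 share sub-cluster 0, while Retnla is concentrated in sub-cluster 10, Chil3 in sub-cluster 2, Mrc1 in sub-cluster 6, and Mgl2 in sub-clusters 10 and 9.

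The day difference of Arg1 was found within sub-clusters as well as between them. Its level was lower at 5 dpw, beyond counting error, in 12 of 12 sub-clusters measured in Angptl4+/+ wounds and in 10 of 11 in Angptl4-/- wounds. The sub-clusters measured include dendritic cell-like ones, where Arg1 was low and whether its counts are background was not tested. In sub-cluster 0 it was 9438 and 6423 CPM in Angptl4+/+ and 8877 and 5882 in Angptl4-/- wounds, log2 day ratios of -0.56 (-0.58 to -0.53) and -0.59 (-0.64 to -0.55). The genotype gap at 5 dpw, in contrast, was unequal across sub-clusters. Of 10 measured, 7 were lower without Angptl4 and 2 higher, beyond counting error. The median log2 ratio was -1.28, with a range of -5.08 to 0.31. These too include dendritic cell-like sub-clusters with few Arg1 counts. The lowest ratio was from sub-cluster 8, where Arg1 was 1.17 CPM in the lowest library. In sub-cluster 0 the ratio was -0.13 (-0.17 to -0.09), and in sub-cluster 4 (Gpnmb, Slc6a8, Spp1) it was 0.12 (0.04 to 0.20). In sub-cluster 5 (Ltc4s, Cbr2, Folr2) Arg1 was 2249 CPM in Angptl4+/+ and 425 in Angptl4-/- cells, a ratio of -2.40 (-2.55 to -2.26). In sub-cluster 6 it was 704 and 154 CPM, a ratio of -2.19 (-2.40 to -1.99), and in sub-cluster 10 it was 1203 and 180.0 CPM, a ratio of -2.74 (-2.95 to -2.53). Arg1 at 5 dpw was thus lower without Angptl4 in most sub-clusters measured, the Folr2, C1q and Lyz1 groups among them. It was close to level in the groups with the most Arg1, although the difference between sub-clusters was not tested.

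Retnla showed the same crossing of genotypes inside sub-cluster 10 as in the whole class. That sub-cluster held 84.6% of the phagocytes' Retnla UMIs, so both rest largely on the same counts and are not separate evidence. The few cells behind the 1 dpw sums, given above, limit both. The 33 and 106 cells of sub-cluster 10 in Angptl4+/+ wounds had 639 and 5880.2 CPM of Retnla at 1 and 5 dpw. Its 34 and 61 cells in Angptl4-/- wounds had 1276 and 2315. From 1 to 5 dpw the log2 ratio was 3.202 (2.97 to 3.44) with Angptl4 and 0.86 (0.68 to 1.05) without it. The genotype ratio was 1.00 (0.71 to 1.29) at 1 dpw and -1.34 (-1.41 to -1.28) at 5 dpw. Sub-cluster 10 made up 2.78 and 6.71% of macrophage-like cells in Angptl4+/+ and 4.03 and 9.04% in Angptl4-/- wounds, so at 5 dpw its share was higher in the library in which Retnla was lower. After thinning, 15.6 and 41.5% of its Angptl4+/+ cells and 29.4 and 32.8% of its Angptl4-/- cells had a Retnla UMI. Outside it, sub-cluster 5 had 0 UMIs at 1 dpw in either genotype and 398 and 30.8 CPM at 5 dpw in Angptl4+/+ and Angptl4-/- wounds, a ratio of -3.69 (-4.27 to -3.17). Sub-cluster 3 (Tppp3, Ccl24), of shallow cells, had 376 and 395 CPM at 5 dpw, a ratio of 0.07 (-0.32 to 0.45), so the lower level of Angptl4-/- cells was not found in every sub-cluster.

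In sub-cluster 10, the lectins Mgl2 and Mrc1 did not share the lower 5 dpw level that Retnla and Arg1 had there in Angptl4-/- cells. Mgl2 at 5 dpw was 280 CPM with Angptl4 and 500.3 without it, a ratio of 0.84 (0.65 to 1.03). Mrc1 was 592 and 648, a ratio of 0.13 (-0.01 to 0.27). Clec10a was lower there, at 44.8 to 73.2 CPM over the libraries. In sub-cluster 6, where Mrc1 was highest over all libraries, its 5 dpw level was lower without Angptl4, 569 against 716 CPM. From 1 to 5 dpw Mrc1 there went from 1079.7 to 716 CPM with Angptl4 and from 1083 to 569 without it. The log2 ratios were -0.59 (-0.72 to -0.47) and -0.93 (-1.07 to -0.78), both within 2-fold. The share of macrophage-like cells in that sub-cluster went the other way, from 6.59 to 12.2% and from 8.06 to 14.9%, beside a class level of Mrc1 that stayed nearly level. In the dendritic cell-like sub-cluster 9, Mgl2 was 95.5 and 374 CPM in Angptl4+/+ and 247 and 357 in Angptl4-/- wounds, and Clec10a 191, 353, 198 and 504.3.

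**Figure D4:**
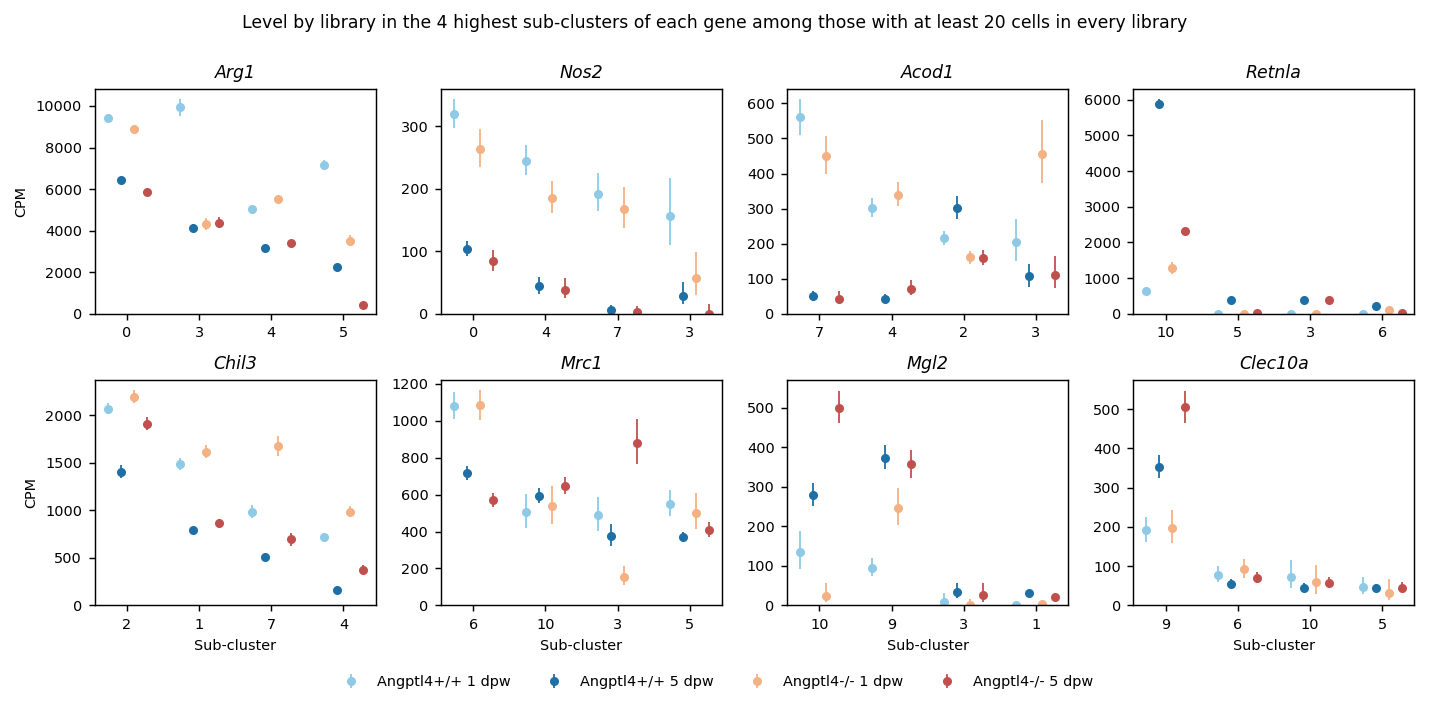
Level of each gene in CPM by library in the 4 sub-clusters where it was highest among those with at least 20 cells in every library, with exact Poisson 95% intervals of the counts as bars. Retnla in sub-cluster 10 is lowest at 1 dpw (639) and highest at 5 dpw (5880.2) in Angptl4+/+ wounds, and Arg1 in sub-cluster 5 is lowest at 5 dpw in Angptl4-/- wounds (425).

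Did single cells carry genes of both programmes? In macrophage-like cells thinned to 1000 UMIs, Nos2 and Arg1 went together: at 1 dpw 14.6% of the cells with Arg1 also had Nos2, against 1.38% of those without, in Angptl4+/+ wounds, and 10.3 against 3.196% in Angptl4-/- wounds. At 5 dpw the shares were 4.44 against 0% and 5.29 against 0.242%. Read the other way, 89.2 to 100% of cells with Nos2 also had Arg1, against 34.2 to 77.6% of those without. At 5 dpw only 34 and 13 cells had Nos2 (Angptl4+/+ and Angptl4-/-). The enzymes that compete for arginine were thus found in the same cells and the same sub-cluster. Mrc1 was rarer in cells with Nos2 than in those without in 3 libraries, at 2.31 against 19.0%, 5.88 against 21.5% and 1.54 against 18.9%. The 5.88% was 2 of 34 cells, at 5 dpw in Angptl4+/+ wounds. In Angptl4-/- wounds at 5 dpw the shares were 23.1 against 25.5%. That 23.1% was 3 of 13 cells, with an interval of 5.04 to 53.8%, too few to compare. Cells with Retnla at 5 dpw carried Mgl2 more often than those without, 15.3 against 0.976% in Angptl4+/+ and 22.2 against 2.61% in Angptl4-/- wounds. They also carried Mrc1 more often, 36.1 against 20.4% and 48.1 against 24.4%. Chil3, the gene often listed beside Retnla, was seldom in the same cell: 4.17% of 72 cells with Retnla against 13.8% without at 5 dpw in Angptl4+/+ wounds, and 0 of 27 against 20.03% in Angptl4-/- wounds. These shares describe cells of single libraries, and cells are not replicates.

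**Figure D5:**
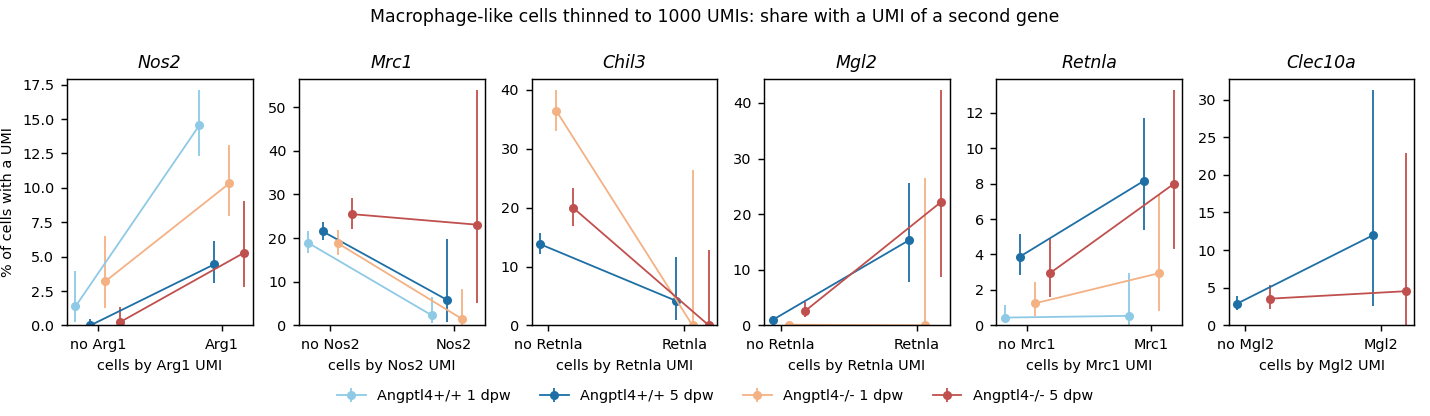
Share of macrophage-like cells, thinned to 1000 UMIs, with a UMI of a second gene among cells with and without a first gene, by library, with exact binomial 95% intervals. Libraries with under 10 cells with the first gene are not drawn. Nos2 is commoner in cells with Arg1 in all 4 libraries, and Chil3 is rarer in cells with Retnla in the 3 libraries drawn.

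The genes whose pattern over sub-clusters and libraries was most like that of each member were found by Pearson correlation of log2(CPM + 1) over 49 sums of at least 20 cells, which come from only 4 libraries and overlap in depth and cell source. Arg1 was most like Abca1 (0.93), which exports cholesterol, Ecm1 (0.91) and Bnip3 (0.91), a mitophagy gene induced by hypoxia. Nos2 was most like Ptges (0.90), the inducible prostaglandin E synthase, with Grina and Inhba at 0.87. Acod1 was most like Nlrp3 (0.87), the inflammasome sensor, Slpi (0.86) and Tnfrsf23 (0.85). Retnla was most like Lyz1 (0.89), Mamdc2 (0.83) and Kif19a (0.81), and Chil3 like complement C3 (0.91), Klra2 (0.88) and Rhou (0.85). Among the genes most like Mrc1 were Dok2 and Fcgr2b, an inhibitory Fc receptor, both at 0.85. Mgl2 was most like Klrb1b (0.88), Tmem238 (0.82) and the MHC class II gene H2-DMb2 (0.81), and Clec10a like Cyp4f16 (0.81), Gm2a and Ckb (both 0.79). Between members, Arg1 and Nos2 had a coefficient of 0.67, Mgl2 and Clec10a 0.55, and Chil3 and Mgl2 -0.76.

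Other genes of the same pathways were read in macrophage-like cells from 7 lists, also chosen with earlier results of these data known. Of the inflammatory partners of Nos2 and Acod1, 10 of 16 measured genes were past 2-fold lower at 5 dpw and 2 higher in Angptl4+/+ wounds, with a median log2 ratio of -1.49 against 0.15 for all genes, and 8 lower and 1 higher in Angptl4-/- wounds, with a median of -0.93 against 0.07. Among them were the neutrophil-attracting chemokine Cxcl2 (9989 and 1873 CPM at 1 and 5 dpw in Angptl4+/+, 8213 and 2982 in Angptl4-/- wounds), the interferon-induced Cxcl10 (634 and 146, 846 and 181) and the cytokine Il1a (69.9 and 7.88, 50.0 and 12.3). The cytokine gene Il6 went up instead, from 5.46 to 19.4 CPM and from 1.90 to 13.5, so the list did not move as one. The sum of the neutrophil markers fell in the same cells, from 21360.5 to 3756 and from 18034 to 5013 CPM, and their part in the list's counts was not tested. Of the partners of alternative activation, 6 of 14 measured genes were past 2-fold higher and 1 lower in Angptl4+/+ wounds, and 4 of 12 higher and 2 lower in Angptl4-/- wounds. The median was -0.12 against 0.15 for all genes in Angptl4+/+ and 0.64 against 0.07 in Angptl4-/- wounds, so the list as a whole did not shift upward in the former. The growth factor Igf1 rose from 6.24 to 49.1 and from 6.05 to 46.5 CPM and the ribonuclease Ear2 from 9.48 to 53.5 and from 16.4 to 59.5, while the interleukin-1 receptor antagonist Il1rn fell from 771 to 216 and from 977 to 252.

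The metabolic neighbours moved less, and with so few genes a list, 1 or 2 calls lie near the background, the 6.6 and 4.53% of all genes that were past 2-fold higher and the 4.28 and 3.58% that were lower. Among enzymes and transporters of arginine and polyamines, 1 of 12 measured genes was past 2-fold higher and 2 lower at 5 dpw in Angptl4+/+ wounds, and 1 of each in Angptl4-/- wounds: Srm, which makes spermidine, rose from 3.34 to 12.5 and from 4.67 to 15.9 CPM, and Arg2, the mitochondrial arginase, fell from 102 to 20.4 and from 73.5 to 25.2. Of 15 measured genes around itaconate, 2 and 1 were past 2-fold higher and 0 lower, with Gclm, of glutathione synthesis, from 62.9 to 129 and from 46.9 to 96.0. Of 20 receptors and signalling genes that lead to the members, 2 were higher and 0 lower in each genotype: Pparg from 2.79 to 19.0 and from 3.98 to 24.7 CPM, and Irf4 from 3.01 to 18.6 and from 8.30 to 24.2, both transcription factors of the alternative programme. Of 12 measured lectin relatives, 3 were higher and 3 lower in Angptl4+/+ and 1 higher and 3 lower in Angptl4-/- wounds, with Clec4b1 up from 3.01 to 34.4 and from 6.40 to 65.4 and Clec4e, a receptor for mycobacterial glycolipid, down from 997 to 284 and from 1030.3 to 423. Of the resistin and chitinase relatives, 2 of 3 measured genes were lower in Angptl4+/+ and 1 of 2 in Angptl4-/- wounds and 0 higher: Retnlg, the neutrophil relative of Retnla, fell from 975 to 25.6 and from 841 to 30.0 CPM beside the neutrophil markers given above. Between genotypes no listed gene was past 2-fold on both days; 2 alternative partners were at 5 dpw alone, Il10 at 4.59 CPM in Angptl4+/+ and 14.1 in Angptl4-/- cells and the chemokine Ccl24 at 80.5 and 183.3, both named after their values were seen.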

How the data were processed

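The 4 libraries, 1 per genotype and day, were analysed from the deposited UMI counts per gene and cell barcode. The authors made these counts with the 10x 3' V3 kit, Cell Ranger 3.1.0 and mouse build mm10, and the submitters' processing notes also name Seurat 3.0. Barcodes with at least 200 genes and at most 10% mitochondrial UMIs were kept (19827 of 20069). The 8 genes and the gene lists were chosen with earlier results of these data known. Libraries were integrated with Seurat 5.3.0 (R 4.3.3; 2000 variable genes less the members among them, 30 dimensions, resolution 0.5), and the 13 clusters were named from marker lists. Doublets scored with scanpy 1.11.5 were kept in the values given and left out in an alternative, since the automatic threshold marked next to none. UMIs were summed per class and library with exact Poisson, binomial or conditional binomial 95% intervals (scipy 1.17.1, Python 3.11.15). A call means past 2-fold with at least 100 UMIs over both libraries, and a count of 0 allows up to 3 UMIs. The named genes were the 8 members, the 3 genes most like each, and listed genes past 2-fold in the same direction in both genotypes or on both days, at most 6 a list, and 1 gene that met the rule is not reported here. Scaling alternatives used edgeR 4.0.16. Scripts were tested on simulated data. Deposited totals were 26981596 to 32962595 UMIs a library. No test across replicates was possible.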

Additional observations from a re-analysis of the deposited data

Results flagged for a closer look

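Some results went in opposite directions in the pair of days or appeared in cells outside the comparisons. In macrophage-like cells the Retnla ratio of Angptl4-/- to Angptl4+/+ was 1.69 at 1 dpw and -1.05 at 5 dpw on the log2 scale, a difference of -2.74, which was not tested because each ratio rests on 1 library a group. In neutrophil-like cells the Nos2 ratio of the genotypes went from -0.33 at 1 dpw to 0.35 at 5 dpw, a difference of 0.69 that was not tested. With the class taken from each cell's own markers the ratio was -0.33 and -0.19, of 1 sign on both days. The Acod1 ratio in neutrophil-like cells went from -0.04 at 1 dpw, a sign that turned under other scalings, to 0.05 at 5 dpw. The difference of 0.0884 was not tested and is small beside the spread between neutrophil-like clusters.

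Retnla was also counted in the NK cell or T cell-like class. At 1 dpw the Angptl4-/- library had 194 Retnla UMIs in 2 of 36 such cells, 110 of them in 1 cell, while the Angptl4+/+ library had 0 UMIs in 36 cells. Both of those cells also had at least 3 UMIs of the reference macrophage genes, as did 5.88% of the other cells of the class in that library. At 5 dpw there were 396 UMIs in 2 of 226 cells in Angptl4+/+ wounds, 395 of them in 1 cell and with 1 of the cells called a doublet, and 490 UMIs in 6 of 219 cells in Angptl4-/- wounds.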

How the results depend on the processing

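No paired analysis was possible because each genotype and day had 1 library, and leaving out a replicate was not possible for the same reason. Under the alternatives, 15 macrophage-like or neutrophil-like ratios past 2-fold kept their direction in 206 of 206 recalculations and stayed past 2-fold in 198. Counts were also recalculated, most of them counts of the 8 members past 2-fold in a comparison. The rest counted pairs of gene and library that kept their class of highest level. These counts were within 1.5 times the reported value in 91 of 127 recalculations. In macrophage-like cells the genotype count at 1 dpw went from 1 to 2 with at least 20 or at least 1 UMI and to 0 without sub-cluster 10, and at 5 dpw from 1 to 0 under a stricter cell filter (at least 500 genes and at most 5% mitochondrial UMIs), without integration and with the mean of each cell's own CPM, to 2 with the class taken from each cell's own markers, and to 3 at 1.5-fold. The neutrophil-like day count in Angptl4+/+ wounds went from 1 to 2 without doublets, by each cell's own markers, by mean CPM per cell, with cells thinned to 1000 UMIs, with at least 20 UMIs, at 1.5-fold and without the cell with the most UMIs, to 3 under TMM or median-of-ratios scaling and to 4 with at least 1 UMI. In Angptl4-/- wounds it went from 0 to 1 under the stricter cell filter, with at least 20 UMIs and without the cell with the most UMIs, to 2 by each cell's own markers and at 1.5-fold, and to 3 under TMM or median-of-ratios scaling and with at least 1 UMI. The neutrophil-like genotype count went from 0 to 1 at 1 dpw by each cell's own markers, after thinning and at 1.5-fold, and at 5 dpw from 0 to 1 without doublets, without integration, by each cell's own markers, after thinning, with at least 20 UMIs and at 1.5-fold, and to 3 with at least 1 UMI. The cause was not tested. The alternatives without named sub-clusters, with equal sub-cluster weights and without the cell with the most UMIs were chosen after seeing the data. Given the same sub-cluster weights in both libraries, the Retnla day ratio was 3.46 in Angptl4+/+ and 0.86 in Angptl4-/- wounds. The latter was no longer past 2-fold, and with too few UMIs Mgl2 in Angptl4-/- wounds had no call without sub-cluster 10. With the class from each cell's own markers, Arg1 lost its day call in both genotypes (-0.60 and -0.80), Chil3 lost it in Angptl4-/- wounds (-0.84), and in neutrophil-like cells of Angptl4+/+ wounds Nos2 lost it (-0.83) while Arg1 (-2.64) and Chil3 (-2.23) passed 2-fold. Depth limits Mgl2 and Clec10a most, with 2902 and 3432 UMIs over all libraries.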
